A study of Mus musculus with 4 samples.

Results

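Mitochondrial ribosomal protein genes were measured by array in lung RNA of 4 A/J mice given bleomycin. They were chosen by symbol alone: each array probe whose single gene symbol was Mrpl or Mrps followed by a digit. There were 73 such probes for 70 genes, and 52 of these genes had values for 3 or 4 of the arrays, out of 8384 genes that met the same demand. The 52 comprise 33 Mrpl genes, named for the large subunit, and 19 Mrps genes, named for the small subunit.

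A/J mice are an inbred strain, and bleomycin is a drug that breaks DNA and injures the lung. Lung RNA of each treated mouse was amplified and hybridised on a 2-colour array beside amplified RNA of a lung pool of control A/J animals, so there was 1 group of 4 samples and 1 shared control sample. The sources used here give neither age, sex, dose, route and time of treatment nor the number of mice in the pool. The question was which of these genes differ between treated and control lungs.

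A value here is the log ratio of both channels, read as log2 and centred on the array's median. Neither the order of the ratio nor the base of the logarithm is stated, so genes are given by their side of 0, and all signs would turn if the pool were on top. The arrays held values for 9427 to 12136 of 17280 spots. Since the file holds ratios only, the level of a transcript, and any comparison of levels between genes, was beyond reach, and fewer cells of a type cannot be told apart from less RNA per cell. Each test asks whether the mean of the 4 mice differs from 0. It rests on the spread between these mice. The spread among controls, hidden in the pool, does not enter it.

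Mitochondria carry their own ribosomes, which make a small set of respiratory chain proteins encoded by mitochondrial DNA. All proteins of these ribosomes are encoded in the nucleus, made in the cytosol and imported. Some have a counterpart in bacterial ribosomes, and others occur only in mitochondria. In the lung, as elsewhere, this ribosome supplies core subunits of complexes I, III and IV and of ATP synthase. NRF-1, the ETS-family factor GABP and YY1 are known regulators of nuclear genes for mitochondrial proteins.

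Promoter sequence was compared because the members are regulated from many separate sites in the genome. Windows of 300 bases, 250 before and 50 after the annotated start, were taken from RefSeq (GRCm38.p6) for 47 of the 52 genes. Mrpl38, Mrpl4, Mrpl54, Mrps28 and Mrps34 had none. Letters resembling binding sites were counted on both strands: CCGGAAG for ETS factors, AANATGGCG for YY1, GGGCGG for SP1 and the palindrome of NRF-1, of which the capitals in Mrpl9 below are an instance. CCAAT and TATAAA were also searched, and stood in 46.8% and 8.51% of the 47 windows and in 37.9% and 14.2% of all windows. The ETS letters stood in 14 of the 47 windows (29.8%), against 9.12% of all 27025 windows of the table. The YY1 letters stood in 8 (17%), against 2.51% of all windows. The NRF-1 letters stood in 7 (14.9%), against 4.78%, and the SP1 letters in 26 (55.3%), against 35.9%. Windows of genes on the array are a nearer comparison, but 6671 of the 8384 genes tested had one, too few for a check over all of them. Among those 6671 the ETS letters stood in 15.9%, the YY1 letters in 4.66%, the NRF-1 letters in 9.46% and the SP1 letters in 58.3%. CCAAT and TATAAA stood in 39.1% and 9.29% of them. A match is a description of letters, not a bound site.

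The sequences below are the stretches before the start of 4 members that passed the test, 2 below and 2 above 0. They are shown because they hold, or lack, those letters. They are written 5′ to 3′ on the strand of the gene, with ETS and NRF-1 letters in capitals. The stretch of Mrpl50 reaches back to the start of Zfp189 on the opposite strand. For Mrpl43 and Mrpl9 the 30 bases nearest the start are printed, the limit set for stretches inside an annotated span. The whole windows of Mrpl52 and Mrpl43 each hold 2 ETS matches, of which 1 is printed. The window of Mrpl43 also holds 2 SP1 matches outside the printed bases.
Mrpl52 (chr14:54426659-54426908, + strand): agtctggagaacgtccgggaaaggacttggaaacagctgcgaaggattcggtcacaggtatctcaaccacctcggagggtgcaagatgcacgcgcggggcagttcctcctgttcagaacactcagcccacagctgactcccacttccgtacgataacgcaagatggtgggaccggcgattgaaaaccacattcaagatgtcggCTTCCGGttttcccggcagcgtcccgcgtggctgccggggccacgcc
Mrpl43 (chr19:45006443-45006472, - strand): catgccacaaccccggaaCCGGAAGtcacc
Mrpl9 (chr3:94443306-94443335, + strand): ctGCGCATGCGCggggtccttcttccgcct
Mrpl50 (chr4:49521084-49521175, - strand): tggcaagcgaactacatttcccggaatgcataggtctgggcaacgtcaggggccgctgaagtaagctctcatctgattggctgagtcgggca
The ETS letters begin 47 bases before the start in Mrpl52 and 12 before it in Mrpl43, and the NRF-1 letters begin 28 before it in Mrpl9. The printed 92 bases of Mrpl50 hold none of the 4 motifs.

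Of the 52 genes, 8 passed the test (limma, Benjamini-Hochberg adjusted p at most 0.05 over all 8384 genes), 5 below 0 and 3 above. All 8 carry an Mrpl symbol. Over all genes 12.5% passed, 7.69% above and 4.81% below 0, and the share of members, 15.4%, was near that background, so the number of calls does not set the family apart. Without 1 mouse, whichever it was, 2 to 4 members passed, and 2 passed with mice 1 and 2, and mice 3 and 4, as a random block. Over all 8384 genes the number passing fell as well, from 1048 to between 296 and 573 without 1 mouse and to 402 with the block. At an unadjusted p under 0.05 there were 21 members of 52, while 31.8% of all genes reached it. The mean lay below 0 in 33 members and above it in 19. The median of the 52 means was -0.12, against 0.00 over all genes. It was -0.07 without mouse 1 and -0.06 without mouse 2. The median size, whatever the sign, was 0.22 for members against 0.16 for all genes.

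**Figure D1:**
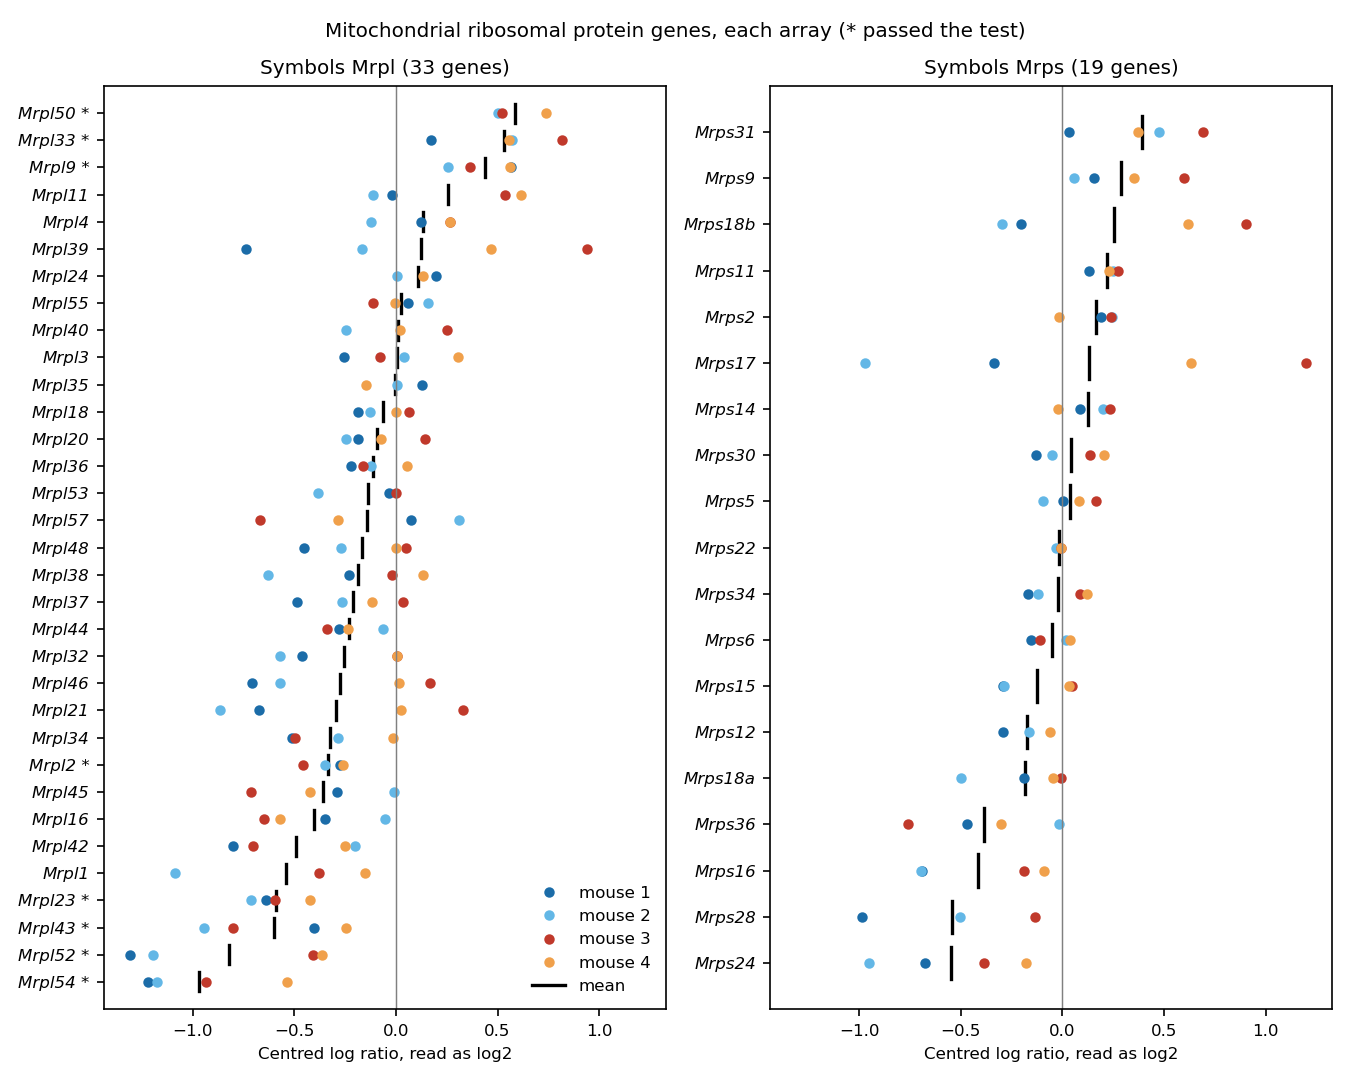
Centred log ratio, read as log2, of each mitochondrial ribosomal protein gene on each array. Large subunit symbols stand on the left (33 genes) and small subunit symbols on the right (19 genes); points are mice, black bars are means, and an asterisk marks the 8 genes that passed the limma test, all of them on the left.

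Below 0, Mrpl54 lay farthest out, and Mrpl23 varied least between mice among the 4 lowest genes that passed. Mrpl54, a large subunit protein with no bacterial counterpart, had log ratios of -1.22, -1.18, -0.94 and -0.54 in mice 1 to 4. The mean was -0.97 ± 0.31 (SD, n = 4), a 1.96-fold difference if the base is 2 (limma adjusted p = 0.0132). Every array was thus well below 0, and mouse 4 was the nearest to it. Mrpl23, whose bacterial counterpart borders the exit of the tunnel for the growing peptide, had -0.64, -0.71, -0.59 and -0.43. Its mean was -0.59 ± 0.12 (SD, n = 4; limma adjusted p = 0.0123). These are the 2 members that passed whichever mouse was left out, at limma adjusted p up to 0.0481, and the 2 that passed with the random block.

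The other genes below 0 passed by less. Mrpl52, again a protein of mitochondria only, had -1.31 and -1.20 in mice 1 and 2 but -0.41 and -0.36 in mice 3 and 4. Its mean was -0.82 ± 0.50 (SD, n = 4; limma adjusted p = 0.0468). The arrays thus formed a low and a high pair, with all 4 below 0. It did not pass without centring (limma adjusted p = 0.0518) or when genes with 2 values were also tested (0.0528). Mrpl43, also without a bacterial counterpart, was divided otherwise, with -0.95 and -0.80 in mice 2 and 3 and -0.40 and -0.24 in mice 1 and 4 (mean -0.60 ± 0.33, SD, n = 4; limma adjusted p = 0.0424). Mrpl2, whose bacterial counterpart lies close to the site of peptide bond formation, had a smaller but even difference, with -0.28, -0.35, -0.46 and -0.26. Its mean was -0.34 ± 0.09 (SD, n = 4; limma adjusted p = 0.0349). None of these 3 passed in any of the 4 fits that left out a mouse, at limma adjusted p from 0.0582 to 0.121.

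Above 0, the 3 genes that passed were Mrpl50, Mrpl33 and Mrpl9. Mrpl50, a large subunit protein without a bacterial counterpart, had no value in mouse 1 and 0.50, 0.52 and 0.74 in mice 2 to 4. The mean was 0.59 ± 0.13 (SD, n = 3; limma adjusted p = 0.0255), fitted on those 3 mice. Mrpl33, a small protein shared with bacteria, had 0.17 in mouse 1 and 0.57, 0.82 and 0.56 in the others (mean 0.53 ± 0.27, SD, n = 4; limma adjusted p = 0.0391). Mouse 1 was the lowest there, though still above 0. Mrpl9, also shared with bacteria, had 0.56, 0.26, 0.37 and 0.56 (mean 0.44 ± 0.15, SD, n = 4; limma adjusted p = 0.0280). Of the 4 fits that left out a mouse, Mrpl33 passed in 1, without mouse 1, and Mrpl9 in 1, without mouse 2. Mrpl50 also passed without mouse 1, but it has no value there, so that fit removed none of its data. Where 1 of its values was removed, Mrpl50 did not pass (limma adjusted p from 0.0622 to 0.0943). In the other fits of Mrpl33 and Mrpl9 limma adjusted p reached 0.114. None of the 3 genes passed with the block (limma adjusted p from 0.0520 to 0.0798).

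Several members lay as far from 0 without passing. Mrps24, the counterpart of a bacterial protein at the entry of the messenger RNA, had -0.68, -0.95, -0.39 and -0.18 (mean -0.55 ± 0.34, SD, n = 4). With a limma adjusted p of 0.0527 it stood just outside the threshold, as Mrpl52 stood just inside, and its 95% interval ran from -0.88 to -0.21. Mrps28, a small subunit protein, had -0.99, -0.51 and -0.13 in mice 1 to 3 and no value in mouse 4 (mean -0.54 ± 0.43, SD, n = 3; limma adjusted p = 0.115). Mrpl1, a counterpart of the protein of the mobile L1 stalk, had -1.09 in mouse 2, but -0.38 and -0.15 in mice 3 and 4 and no value in mouse 1. All values of these 3 genes were below 0, over a wide range. Above 0, Mrps31, a small subunit protein of mitochondria only, had 0.03, 0.48, 0.69 and 0.37 (mean 0.39 ± 0.27, SD, n = 4; limma adjusted p = 0.0790). Mrps9, the counterpart of bacterial S9, had 0.16, 0.06, 0.60 and 0.35 (mean 0.29 ± 0.24, SD, n = 4; limma adjusted p = 0.123). Mrpl11, at the base of the stalk that binds translation factors, had -0.02 and -0.11 in mice 1 and 2 and 0.54 and 0.61 in mice 3 and 4 (limma adjusted p = 0.286), so its arrays fell on both sides of 0.

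The remaining members had means from -0.49 to 0.25, and 0 of them passed limma. Between -0.49 and -0.23 lay Mrpl42, Mrps16, Mrpl16, Mrps36, Mrpl45, Mrpl34, Mrpl21, Mrpl46, Mrpl32 and Mrpl44. Mrpl42 was nearest to the threshold (limma adjusted p = 0.0573) and passed when arrays were scaled to one spread. Mrpl16 passed in the fit without mouse 2. Also among these are Mrpl45, which sits at the tunnel exit and contacts the inner membrane, and Mrps36, a protein now assigned to the oxoglutarate dehydrogenase complex in place of the ribosome. Mrps36 had -0.47, -0.02, -0.76 and -0.30 (limma adjusted p = 0.101). Between -0.21 and 0.00 lay Mrpl37, Mrpl38, Mrps18a, Mrps12, Mrpl48, Mrpl57, Mrpl53, Mrps15, Mrpl36, Mrpl20, Mrpl18, Mrps6, Mrps34, Mrps22 and Mrpl35. Mrps12, the counterpart of a protein of the decoding centre, had -0.29, -0.17 and -0.06 in mice 1, 2 and 4. Mrps22 stayed between -0.03 and -0.01 in mice 2 to 4 and had no value in mouse 1. Between 0.00 and 0.25 lay Mrpl3, Mrpl40, Mrpl55, Mrps5, Mrps30, Mrpl24, Mrps14, Mrpl39, Mrps17, Mrpl4, Mrps2, Mrps11 and Mrps18b. Mrps11 had the smallest spread in that last range, with 0.13, 0.25, 0.27 and 0.23 (mean 0.22 ± 0.06, SD, n = 4; limma adjusted p = 0.0754).

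A further 18 of the 70 genes had too few values: 9 had 2 values, 6 had 1 and 3 had 0 (Mrpl19, Mrpl51 and Mrps10). They are not analysed further. Mrpl30 had -0.55 and -0.56 in mice 1 and 2, and Mrps21 had -0.78 in mouse 1 and -0.51 in mouse 3. Of the tested members, 3 had a second probe. For Mrps12 it gave no value, for Mrps15 the probes had -0.43 and -0.14 in mouse 2 and both 0.03 in mouse 4, and for Mrpl3 they lay on opposite sides of 0 in mouse 2, with -0.18 and 0.26 in mouse 2 and 0.04 and 0.58 in mouse 4.

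The large subunit lay lower than the small one on each array, by an amount smaller than the spread of genes within either. The median of the 33 large subunit means was -0.17 and that of the 19 small subunit means -0.02, a difference of -0.15. By array, the large subunit median was -0.28, -0.20, -0.02 and 0.00 in mice 1 to 4, and the small subunit median -0.18, -0.09, 0.11 and 0.03. The large minus small difference was thus -0.10, -0.11, -0.13 and -0.04. Genes of a subunit are not replicates, so no test is given. Of the 33 large subunit genes, 8 passed limma (24.2%), and of the 19 small subunit genes 0 did, with 14 and 7 at an unadjusted p under 0.05. Over all genes 12.5% passed, and 31.8% had an unadjusted p under 0.05. Whether the subunits differ in the share that passed was not tested, and Mrps24 lay close to the threshold. It passed when each array was scaled to a common spread (limma adjusted p = 0.0474), and also when only genes with 4 values were tested (0.0469).

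Symbols are an imperfect guide to the subunit. The products of Mrps18a and Mrps30 sit in the large subunit in structures of the mammalian ribosome, and that of Mrps36 in neither. With genes placed by structure, the 35 large subunit genes had a median of -0.17, the 16 small subunit genes one of 0.01, and the counts that passed stayed at 8 and 0 among genes with an Mrp symbol. Chchd1, a small subunit protein gene with another symbol, passed below 0 and is described further on. Genes were also classed by whether a bacterial counterpart was assigned. The 30 genes classed with one had a median of -0.06 with 4 passing, and the 21 classed without one a median of -0.17 with 4 passing. Those 21 include Mrps18a and Mrps18b, although Mrps18b is a relative of bacterial S18, so the classes do not strictly follow descent. By array the medians were -0.19, -0.12, 0.05 and 0.005 with a counterpart, and -0.29, -0.25, 0.00 and -0.005 without, so the latter were the lower on each array. Within large subunit symbols the median was -0.08 with a counterpart (18 genes) and -0.21 without (15 genes). Within small subunit symbols it was -0.01 (12 genes) and 0.01 (6 genes). Large subunit genes without a counterpart were the lower in mice 1, 2 and 4 but not in mouse 3. Small subunit genes without one were the lower in mouse 3 only. No test of these differences is given.

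**Figure D2:**
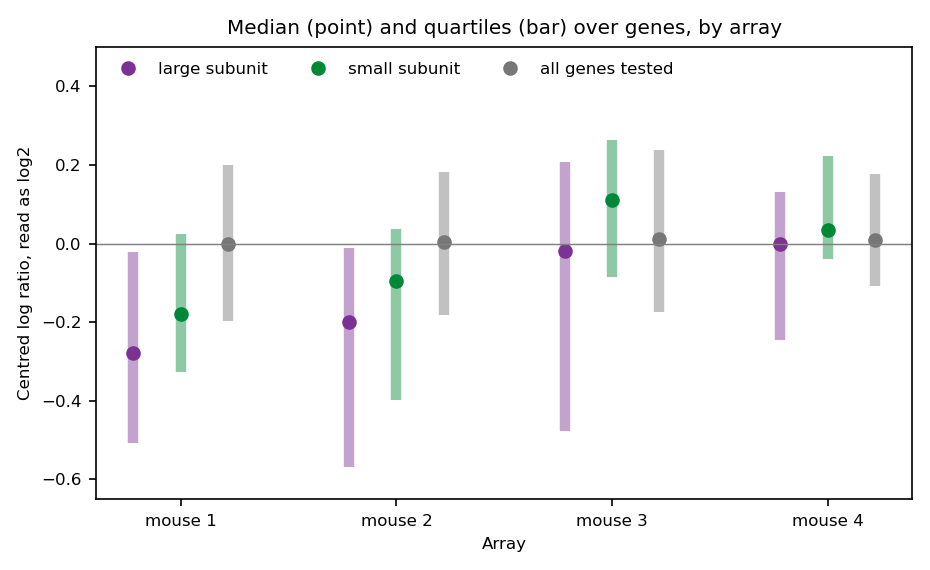
Median (point) and quartiles (bar) of the centred log ratio, read as log2, over the large subunit genes, the small subunit genes and all genes tested, for each array. In mice 1 and 2 both subunits have medians from -0.28 to -0.09, and in mice 3 and 4 from -0.02 to 0.11.

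The arrays differed from each other more than the subunits did. Over the 52 genes the median was -0.24 in mouse 1 and -0.15 in mouse 2, but 0.01 in mouse 3 and 0.00 in mouse 4. The share of members with a value below 0 was 72.9% and 73.1% in mice 1 and 2, and 46.9% and 50% in mice 3 and 4. Over all genes this share was 50.1%, 49.6%, 48.2% and 47.7%. Across members, Pearson's r was 0.76 between mice 1 and 2 (48 genes) and 0.89 between mice 3 and 4 (47 genes), and 0.31 to 0.50 between the other mice. All arrays share the pool, and over all genes the same figures were 0.71, 0.86 and 0.43 to 0.56. No label names a batch or a pairing of these mice.

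Members with opposite signs in the pairs show this most plainly. This division was chosen after the values were seen and is given as a description. Of 43 members with 4 values, 12 had mice 1 and 2 on one side of 0 and mice 3 and 4 on the other (27.9%), against 14.7% of 6057 genes with 4 values. In 10 of the 12, mice 1 and 2 were the ones below 0, as they were in 531 of the 891 such genes over the whole array. A same sign on all 4 arrays was found in 19 of the 43, 14 below and 5 above 0, and in 46.4% of all genes with 4 values, where 1309 lay below and 1501 above 0.

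Mrps17, the counterpart of bacterial S17, spanned the widest range, with -0.34 and -0.97 in mice 1 and 2 and 1.20 and 0.63 in mice 3 and 4. Mrpl39, a protein related to threonyl-tRNA synthetase, had -0.74 and -0.17 in mice 1 and 2 against 0.94 and 0.47 in mice 3 and 4. Mrps18b, a vertebrate relative of bacterial S18, had -0.20 and -0.30 against 0.90 and 0.62. Their means, 0.13, 0.13 and 0.25, therefore describe none of the mice. Mrpl21 had -0.67 and -0.87 against 0.33 and 0.02. The opposite order was seen in Mrpl57, with 0.07 and 0.31 in mice 1 and 2 and -0.67 and -0.29 in mice 3 and 4, and, with values nearer to 0, in Mrpl55.

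**Figure D3:**
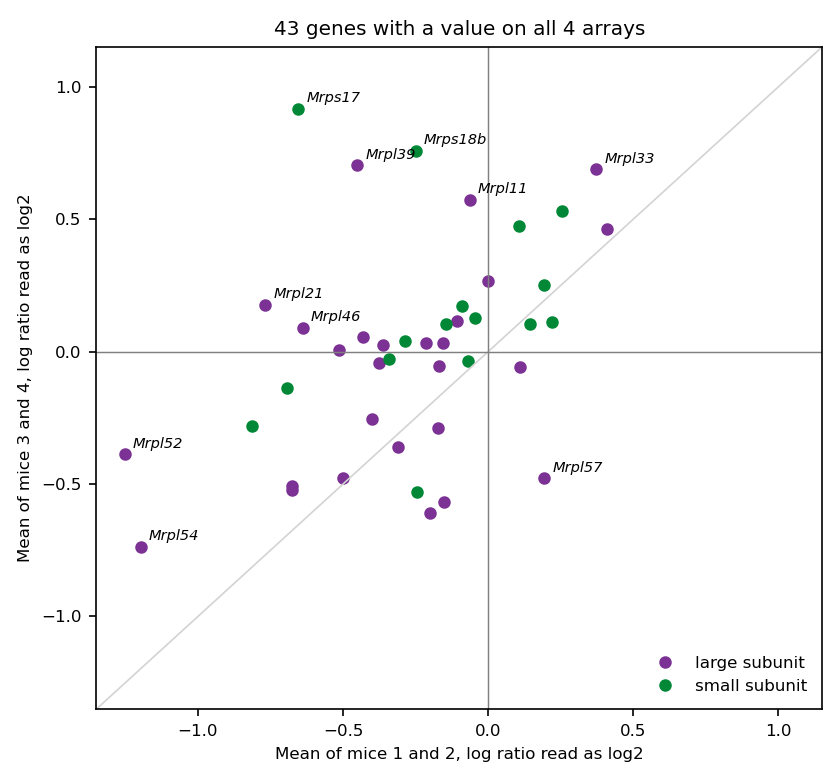
Mean log ratio (read as log2) of mice 3 and 4 against that of mice 1 and 2, for the 43 members with a value on all 4 arrays; the grey diagonal marks equal means. Mrps17, Mrpl39 and Mrps18b stand at the upper left, Mrpl57 at the lower right, and Mrpl54 and Mrpl52 at the lower left.

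The order of the pairs, whatever the sign, was found in a larger share of members than of all genes, though not in members alone. In 24 of the 43 members with 4 values (55.8%) both mice 1 and 2 lay below both mice 3 and 4. In 4 (9.3%) both lay above. Over the 6057 genes with 4 values this was so in 31.9% and 22.5%. The share with mice 1 and 2 below was 21.4% for respiratory chain genes, 35.6% for cytosolic ribosomal protein genes and 27.3% for mitochondrial import genes. It was 18.2% for mitochondrial translation factors and tRNA synthetases, and 45% for mitochondrial ribosome assembly and RNA processing genes. These counts were added after the values were seen and have no test.

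Among 14 tested cell cycle genes, with medians of -0.46, -0.50, 0.03 and -0.02 in mice 1 to 4, mice 1 and 2 lay below mice 3 and 4 in 9 of the 10 with 4 values. Of the 14, 0 passed limma, and 3 had an unadjusted p under 0.05. Medians were also lower in mice 1 and 2 for macrophage (-0.63, -0.51, -0.32 and 0.03), mitochondrial import (-0.15, -0.22, -0.09 and 0.00) and biogenesis regulator genes (-0.11, 0.05, 0.15 and 0.08). In fibroblast and smooth muscle genes (-0.05, 0.04, 0.21 and 0.04) mice 2 and 4 were about equal. By gene, mice 1 and 2 lay below mice 3 and 4 in 2 of 5 macrophage, 5 of 6 fibroblast and smooth muscle, 6 of 22 import and 4 of 10 regulator genes with 4 values. They lay above in 3 of 5 neutrophil and 3 of 6 fat genes, and below in 0 and 1. The striated muscle list was mixed. Its 24 genes had medians of -2.62, -0.73, -0.87 and -0.88, and 8 of the 20 with 4 values were lower in both mice 1 and 2, among them Tnnt3 (-5.13, -4.52, 0.10 and -1.56), Acta1 (-2.87, -2.33, -0.16 and -0.90) and Ckm (-3.02, -1.82, -0.30 and -0.23). Others, such as Actc1 (-1.57, 0.80, -2.45 and -0.91), were not; these 4 genes were picked after their values were seen. The part of any of these lists in the difference between the mice was not tested.

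The 8 fat cell genes had medians of -0.79, -0.06, -0.81 and -0.55. Both muscle and fat lists include genes of mitochondria-rich cells. Of the muscle and fat genes 7 and 4 passed below 0, among them Tnnc2, Myl1 and Ldb3 for muscle and Gpd1, Plin4 and Cidea for fat. Their part in the members below 0 was not tested.

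Markers of lung cells had values on these arrays, on both sides of 0. Of 10 endothelial genes 8 passed above 0, with the smallest p in Tmem100, S1pr1 and Tek. Of 16 lung epithelial genes 3 passed above 0 (Sftpa1, Epcam and Rtkn2) and 1 below (Aqp5). Of 6 neutrophil genes 2 passed below 0 (S100a8 and S100a9), and of 8 macrophage genes 1 passed above (Mrc1) and 1 below (Plin2). Of 9 lymphocyte genes 1 passed above 0 (Cd2), and of 8 fibroblast and smooth muscle genes 0 passed limma, with 0 at an unadjusted p under 0.05. A ratio does not show the amount of any of these cells.

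Genes of known regulators of mitochondrial biogenesis lay on both sides of 0. The members were not selected as their targets. Of 11 tested, 3 passed above 0 and 1 below. Gabpa, which encodes the DNA-binding ETS subunit of GABP, had 1.32, 1.05, 1.54 and 1.53 in mice 1 to 4 (mean 1.36 ± 0.23, SD, n = 4; limma adjusted p = 0.00653). Yy1, a zinc-finger factor, had 1.10, 0.45, 0.70 and 0.69 (mean 0.74 ± 0.27, SD, n = 4; limma adjusted p = 0.0189). All arrays were thus well above 0 for both genes. Nrf1, which encodes NRF-1, had 0.32, 0.22, 0.44 and 0.22 (mean 0.30 ± 0.11, SD, n = 4; limma adjusted p = 0.0489). On the other side, Esrra, an orphan nuclear receptor of mitochondrial genes, had -1.01, -0.93, -0.88 and -0.29 (mean -0.78 ± 0.33, SD, n = 4; limma adjusted p = 0.0239). Ppargc1a, the coactivator known as PGC-1α, averaged -0.05 ± 0.18 (SD, n = 4; limma adjusted p = 0.726).

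Set beside these factors, the members with their letters lay on both sides of 0. Of the 14 members with ETS letters, 11 had a mean below 0 and 3 above, and 3 had passed the test: Mrpl52 and Mrpl43 below 0 and Mrpl33 above. Of the 8 with YY1 letters, 6 lay below and 2 above, and 0 had passed limma. Of the 7 with NRF-1 letters, 4 lay below and 3 above, and Mrpl9 had passed. For comparison, 29 of the 47 genes with a window lay below 0. No test of these counts was made.

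A start on the opposite strand within 1000 bases, pointing away, was found for 15 of the 47 members (31.9%) and for 16.3% of the 6671 genes tested that had a window. In 1 such case both genes are members. The starts of Mrps11 and Mrpl46 lie 42 bases apart. The 41 bases between them are shown because a gene of each subunit starts beside them. Whether they act on either gene was not tested. They are given here on the + strand with SP1 letters in capitals.
Mrps11/Mrpl46 (chr7:78783090-78783130, + strand): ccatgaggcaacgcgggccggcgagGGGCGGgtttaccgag
Mrps11 was above 0 on all 4 arrays, while Mrpl46 had -0.71, -0.57, 0.17 and 0.01 in mice 1 to 4. Mrps11 minus Mrpl46 was 0.84, 0.82, 0.11 and 0.22, so the partners differed in mice 1 and 2 and were close in mice 3 and 4. The pair was singled out after its values were seen, and neither gene passed limma. Of the other partners, Sars2, the mitochondrial seryl-tRNA synthetase gene next to Mrps12, had a mean of -0.18, close to the -0.17 of Mrps12. Cyb5rl, next to Mrpl37, was the partner that passed below 0 (-0.48 ± 0.20, SD, n = 4; limma adjusted p = 0.0318), while Mrpl37 itself did not (-0.21; limma adjusted p = 0.207).

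Other genes of mitochondrial translation showed no common side. Of 3 tested proteins of the ribosome that carry another symbol, Chchd1, a small subunit protein, passed below 0 with -0.29, -0.37, -0.47 and -0.49 (mean -0.40 ± 0.09, SD, n = 4; limma adjusted p = 0.0236). Dap3, a GTP-binding protein of the small subunit, had -0.46, 0.32, 0.42 and 0.24, and Ptcd3 a mean of 0.05; neither passed. Of 11 translation factors and tRNA synthetases of mitochondria, 0 passed limma and 1 had an unadjusted p under 0.05, and the median was -0.14. Of 23 genes of ribosome assembly and mitochondrial RNA processing, 2 passed above and 2 below 0. These were Eral1, a chaperone of the small subunit RNA (0.30 ± 0.10), and Ngrn (0.68 ± 0.41) above 0, and Malsu1, an assembly factor of the large subunit (-0.51 ± 0.25), and Fastkd2, an RNA-binding protein of mitochondria (-0.42 ± 0.22), below it (SD, n = 4 each). Of 24 genes of mitochondrial import and folding, 4 passed below 0 and 0 above, namely Tomm7 (-0.81), Timm10b (-0.69), Dnajc19 (-0.49) and Dnaja3 (-0.38).

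Respiratory chain genes and cytosolic ribosomal protein genes passed mainly below 0. The respiratory chain list was taken by symbol. It also holds complex II genes, Cycs, assembly factors with Ndufaf symbols and the pseudogene Ndufs5-ps. Of 65 respiratory chain genes 30 passed below 0 and 1 above, with a median of -0.59, with the smallest p in Atp5k, Cox6c, Atp5g2 and Cox5b. The gene above 0 was the assembly factor Ndufaf7, and Ndufs5-ps was among those below. Cox7a1 and Cox8b, also below, are in the striated muscle list too. Of 53 cytosolic ribosomal protein genes 9 passed below 0 and 0 above, with a median of -0.19, with the smallest p in Rpl39, Rps15, Rps26 and Rpl38. This list, also taken by symbol, holds genes named as like a ribosomal protein gene. Among them Rps27l was 1 of the 9 that passed, while Rpl3l, Rpl39l, Rps4l and Rpl36al did not pass. By array, the respiratory chain median was -0.68, -0.43, -0.72 and -0.31, and was thus as low in mouse 3 as in mouse 1. The median of the mitochondrial ribosomal genes was 0.01 in mouse 3. These medians come from the same 4 arrays and pool, and their difference was not tested.

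**Figure D4:**
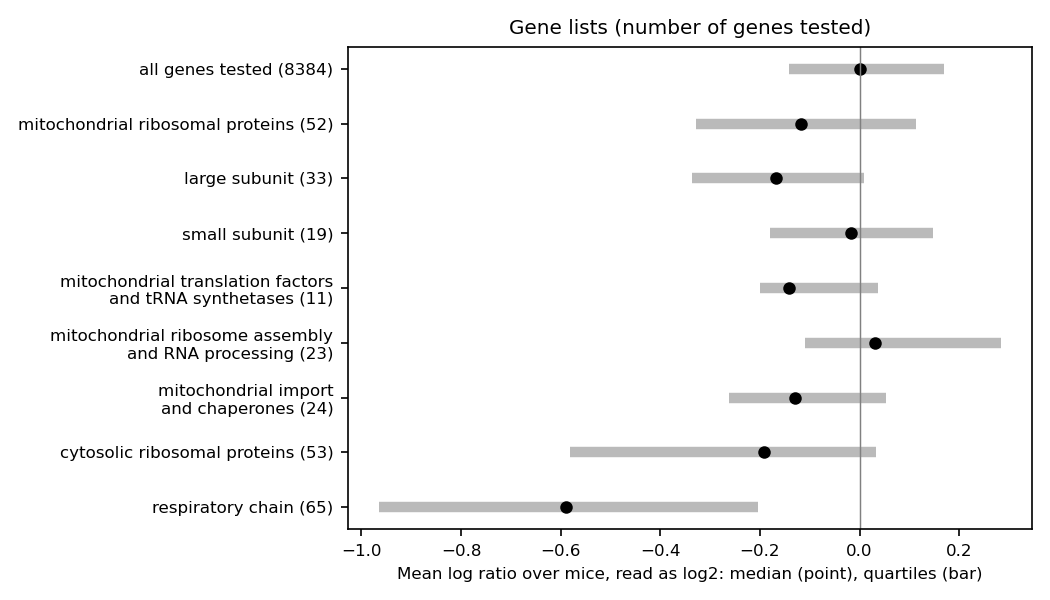
Median (point) and quartiles (bar) over genes of the mean log ratio, read as log2, for all genes tested, the mitochondrial ribosomal protein genes with each subunit, and related gene lists; the number of genes is in brackets. The ribosomal protein genes of mitochondria centre on -0.12 (-0.07 without mouse 1, -0.06 without mouse 2) and the respiratory chain genes on -0.59.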

How the data were processed

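The authors deposited 1 log ratio per spot and array for 4 arrays, read here as log2. That base is assumed, and neither the base nor the direction is stated. The sources used here name no scanner, dye order, normalization or rule behind empty spots. Array medians before centring were -0.009, 0.015, 0.029 and 0.019. Probes were named from the platform's annotation, which lists 14723 probes, 14722 with 1 symbol; 14445 gene IDs matched RefSeq (GRCm38.p6), which changed 0 symbols.

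Arrays were centred on their medians, probes of a symbol were averaged, and genes needed 3 values. The mean was tested against 0 with limma 3.58.1 (R 4.3.3; lmFit, eBayes, two-sided, Benjamini-Hochberg over 8384 genes, threshold 0.05), checked on simulated data. The mice are numbered by the labels; each was taken as 1 replicate. The members and lists were chosen with earlier results of these data known. Named in full are members that passed and the 6 highest and 6 lowest means; of pathway lists, up to 4 genes that passed, and of marker lists up to 3; other names were picked after their values were seen. Columns of values left unused numbered 0.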

Additional observations from a re-analysis of the deposited data

How the results depend on the processing

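Leaving out a mouse reduced the number of members that passed limma, as it did over all genes, from 1048 to between 296 and 573 of 8384. Without 1 mouse, 0 to 2 members passed above 0 and 2 to 3 below, all of them large subunit genes, 2 to 4 in all. Without mouse 2 these included Mrpl16, which did not pass in the main fit. With mice 1 and 2, and mice 3 and 4, as a random block, which was added after seeing the data, 0 passed above and 2 below 0 (Mrpl23 and Mrpl54), so 2 large subunit genes, among 402 of 8384 genes. The small subunit count became 1 with arrays scaled to one spread and 1 with genes that had values on all 4 arrays, where the large minus small difference was -0.25. No centring, other ways to join probes, a robust prior and at least 2 values moved no count by over 1.5 times, though Mrpl52 was lost without centring and with at least 2 values. No paired analysis was possible because there is 1 group. No member with 4 values stood apart in 1 mouse by Dixon's criterion (0 of 43). The number of arrays and the single pool limit the precision.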
